A study of Mus musculus with 10 samples.

Results

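The genes described here belong to the bone morphogenetic protein (BMP) pathway and were chosen by symbol. They are the ligands Bmp2, Bmp4, Bmp5 and Bmp7, the receptor Bmpr1a, the secreted antagonists Grem1, Nog and Chrdl1, and the target gene Id1, which make 9 of the 47069 genes in the table. Bmp4 was found by its gene ID, because its line in the table is broken off before the symbol. All 9 passed the filter on low counts, Nog only through groups in which it was high.

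RNA-seq was performed on poly(A) RNA of mouse intestinal organoids, which are self-organising cultures grown from intestinal cells in Matrigel. There were 10 libraries, 2 in each of 5 groups, all from the C57BL/6 strain and all cultured for 50 days. Control organoids received saline, DMBA organoids received the polycyclic hydrocarbon carcinogen DMBA, TAM short and TAM long organoids received tamoxifen, and DMBA+TAM organoids received both. Per the study, the source mice were Ppp2r1a flox/flox and carried Lgr5-EGFP-CreERT2, so tamoxifen activates Cre in Lgr5+ stem cells and targets Ppp2r1a, the scaffold subunit of the phosphatase PP2A. Controls and all treated groups thus share the floxed alleles and the Cre allele. They also share a medium with EGF, R-spondin 1 and Noggin, so Noggin protein, itself a BMP antagonist, was supplied to every group and is not seen by RNA-seq. The label of the DMBA libraries also reads Long, and that of DMBA+TAM neither short nor long. The labels call the tamoxifen of TAM short and TAM long dosage-sensitive. They do not say what these words mean. The study gives a tamoxifen dose for injected mice, but doses in the organoid cultures are not given in the sources used here. The treatment is not readable from the library names (Lgr5, DSS_L, DSS_S, NL and NS). The study examined each organoid condition in triplicate. Nothing in the sources used here ties the libraries of a group to separate cultures or animals, so p-values measure only the spread between these libraries.

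BMP ligands are secreted dimers that bring type I and type II serine/threonine kinase receptors together, and the active receptors phosphorylate Smad1, Smad5 and Smad9, which enter the nucleus with Smad4 and switch on targets such as the Id genes. Secreted antagonists bind the ligands outside the cell and keep them from the receptors. In the intestine, BMP activity is high towards the villus or the surface and low at the crypt base, where mesenchymal cells release antagonists such as gremlin 1, and BMP signalling limits the growth of Lgr5+ stem cells.

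Total counts on genes ranged from 8828247 to 10923673 in 8 libraries and were 1592366 and 1915270 in DMBA+TAM. Levels are given as normalised CPM, that is, counts relative to library totals scaled by TMM (the trimmed mean of log ratios between libraries), and 3 counts, the limit used for a gene with no reads, equal 0.259 to 0.379 normalised CPM in the 8 deeper libraries and 1.32 to 1.58 in DMBA+TAM. Ppp2r1a, the targeted gene, was 123 and 129 normalised CPM in control, 131 and 147 in TAM short, 169 and 157 in TAM long, and 129 and 133 in DMBA+TAM. It did not fall in any tamoxifen group (DMBA+TAM against control, log2 fold change 0.06 ± 0.11 SE, adjusted p = 0.687), although counts over the whole gene include exons that Cre leaves in place. Because the libraries labelled with tamoxifen did not show a lower Ppp2r1a, their names below are those of the labels.

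Marker lists of cell types differed widely between the groups. The 10 epithelial markers, keratins, Epcam and Cdh1 among them, summed to between 16795 and 26801 normalised CPM in the 8 other libraries and to 27.8 and 41.7 in DMBA+TAM, so the defining markers of an intestinal organoid were nearly absent from the libraries labelled DMBA+TAM, though none of the 10 was at 0 counts in both. The 10 fibroblast markers summed to between 681 and 2191 normalised CPM in the 8 other libraries and to 32112 and 33016 in DMBA+TAM. The 8 smooth muscle markers summed to between 7531 and 13532 normalised CPM in DMBA and TAM long, and to between 1282 and 2417 in the other 6 libraries. The 10 small intestine markers summed to between 22615 and 41312 normalised CPM in control and TAM short and to between 309 and 1025 in DMBA and TAM long, while the 5 colon markers summed to between 203 and 312 and between 2840 and 12133 in the same groups. The letters of the library names follow these markers: the names with S (NS for control, DSS_S for TAM short) belong to the libraries with high small intestine markers, and those with L (NL for DMBA, DSS_L for TAM long) to the libraries with high colon markers. Gut segment and treatment thus cannot be told apart in a comparison of DMBA or TAM long with control, nor in that of TAM long with TAM short. In bulk RNA, fewer cells of a type and less RNA per cell cannot be told apart either.

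**Figure D1:**
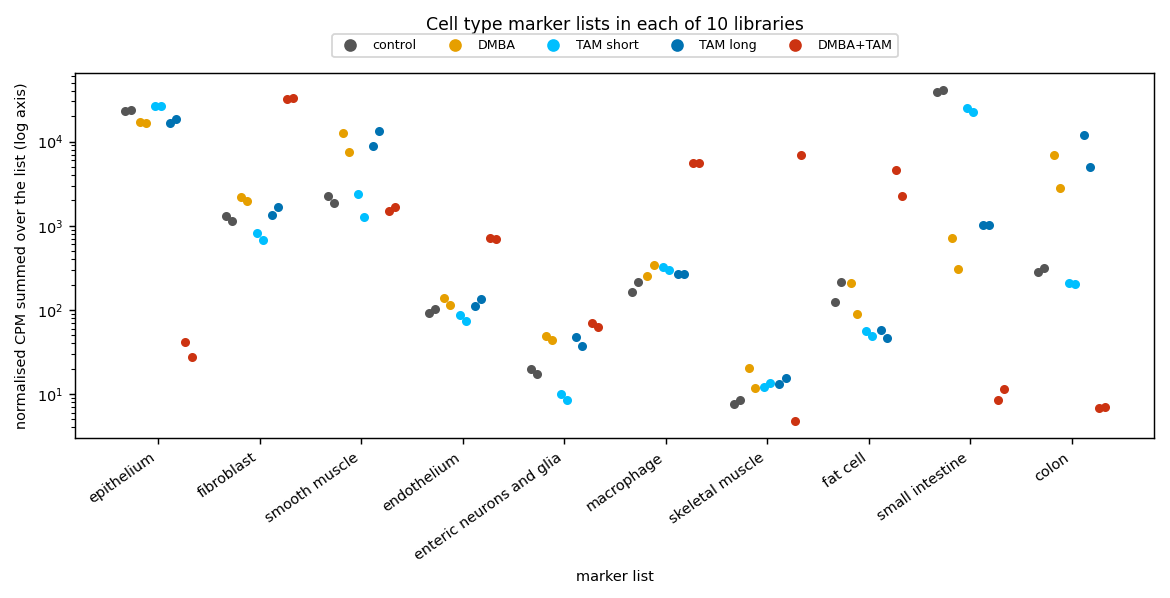
Normalised CPM summed over each cell type marker list (log axis), one dot per library, coloured by group. Epithelial markers lie at 27.8 and 41.7 in the DMBA+TAM libraries and at 16795 or more in the other 8, while small intestine and colon markers split control and TAM short from DMBA and TAM long.

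Levels of different genes can be compared only per length, for which the authors' FPKM was used. FPKM is relative to library totals without TMM, so it serves here to compare genes within a library. In control organoids Id1 (74.3 ± 4.73 FPKM, SD, n = 2) and Bmpr1a (60.8 ± 1.94) were the most abundant of the 9 genes, followed by Grem1 (17.4 ± 1.81). Bmp2 (6.52 ± 0.17) and Bmp4 (5.05 ± 0.49) were next, and Bmp7, Chrdl1, Bmp5 and Nog were each under 3 FPKM. In DMBA+TAM the order differed: Bmpr1a (55.8 ± 3.36 FPKM) was followed by Bmp4 (39.0 ± 11.6), Id1 (29.9 ± 1.50), Chrdl1 (17.5 ± 2.45) and Grem1 (9.31 ± 2.67). Of the pairs of neighbours in this order, Bmp7 and Chrdl1 overlapped between libraries in control, and Bmp4 and Id1 as well as Bmp7 and Nog in DMBA+TAM.

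**Figure D2:**
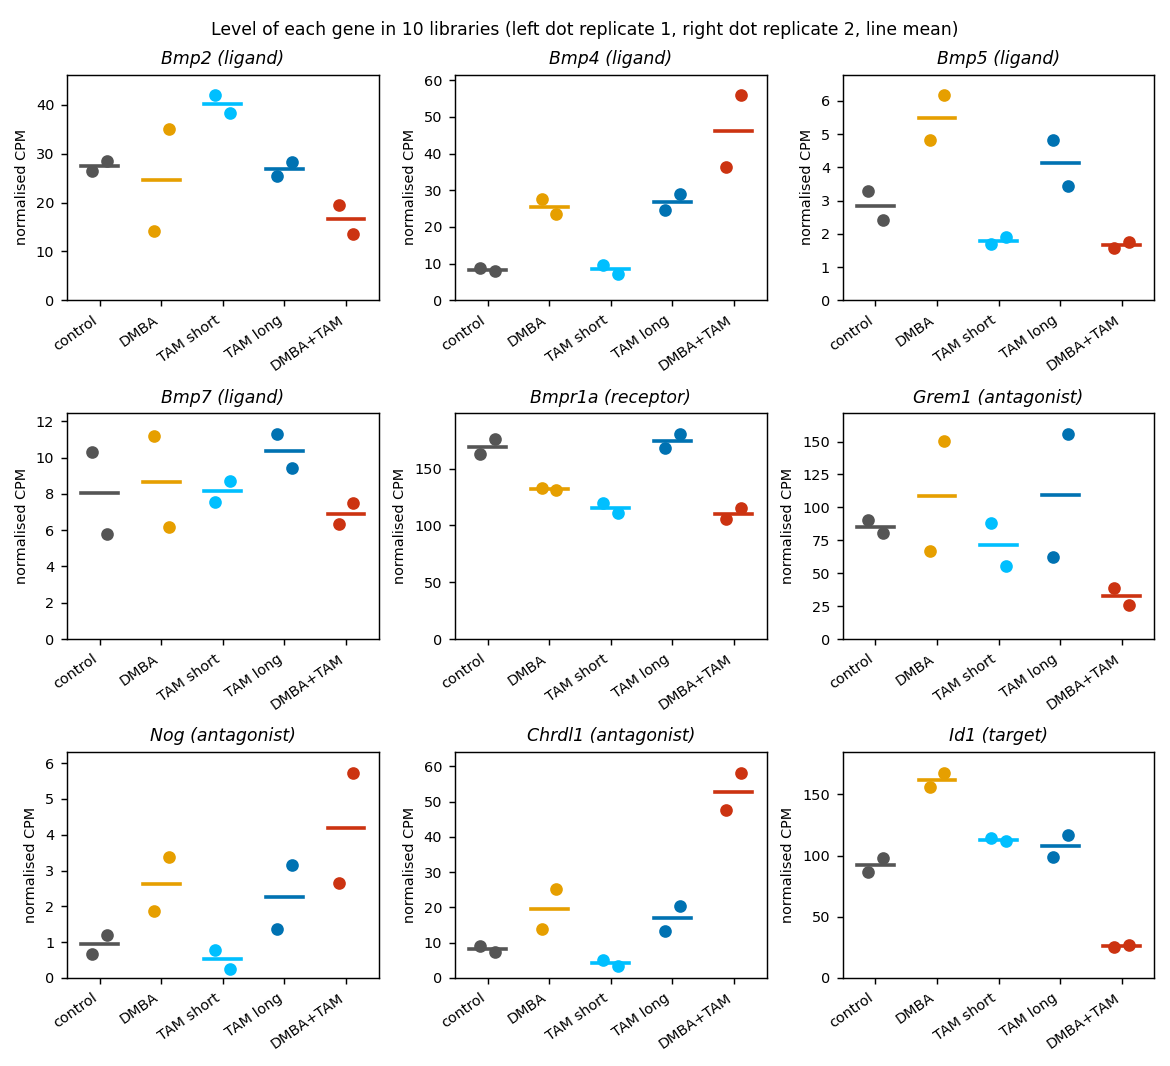
Normalised CPM of each of the 9 genes in each library, on axes from 0. Dots are libraries, with replicate 1 on the left and replicate 2 on the right, and the line is the mean of 2. Bmp4 and Chrdl1 are highest and Id1 and Grem1 lowest in both DMBA+TAM libraries, and Bmp4 is also high in DMBA and TAM long.

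Of these 4 ligands Bmp4 changed most in DMBA+TAM against control, and it is made in the gut mainly by mesenchymal cells below the epithelium. It was 8.82 and 7.95 normalised CPM in control, 9.72 and 7.07 in TAM short, 27.5 and 23.5 in DMBA, 24.5 and 29.0 in TAM long, and 36.4 and 56.0 in DMBA+TAM. The libraries thus fell into a low pair of groups, control and TAM short, a middle pair, DMBA and TAM long, and DMBA+TAM on top, with no overlap between these levels. The log2 fold change against control was 2.47 ± 0.25 SE in DMBA+TAM (adjusted p = 1.2e-05), 1.60 ± 0.23 in DMBA (adjusted p = 0.0004) and 1.67 ± 0.23 in TAM long (adjusted p = 0.00033). In TAM short against control it was 0.00 ± 0.25 (adjusted p = 1). TAM long exceeded TAM short by 1.67 ± 0.23 (adjusted p = 0.00043).

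DMBA+TAM was also above DMBA alone in Bmp4 (0.86 ± 0.23, adjusted p = 0.009) and above TAM long (0.80 ± 0.23, adjusted p = 0.013). Neither call held with every library left out. Without replicate 2 of DMBA+TAM the differences were 0.51 (adjusted p = 0.125) and 0.45 (adjusted p = 0.173), and without replicate 1 of TAM long the second was 0.66 (adjusted p = 0.091). Fibroblast markers were highest in the DMBA+TAM libraries and smooth muscle markers in DMBA and TAM long, and their part in the Bmp4 differences was not tested.

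Bmp4 lies on the minus strand of chr14:46383520-46390669 (GRCm38). Bases of its exons are shared with Gm15217 on the other strand, and whether counting used strand is not given in the sources used here. Gm15217 had at most 5 counts in any library. Because Bmp4 and the antagonist Grem1 moved in opposite directions in DMBA+TAM, the 250 bases before the annotated start of each are shown. They come from the RefSeq promoter table on GRCm38.p6, which has windows for 4 of the 9 genes (Bmp4, Bmp5, Bmpr1a and Grem1). Both are read 5′ to 3′ on the minus strand, from chr14:46390670-46390919 and chr2:113758649-113758898, and capitals mark GGCGCC, a GC-rich motif that Smads can bind.
Bmp4: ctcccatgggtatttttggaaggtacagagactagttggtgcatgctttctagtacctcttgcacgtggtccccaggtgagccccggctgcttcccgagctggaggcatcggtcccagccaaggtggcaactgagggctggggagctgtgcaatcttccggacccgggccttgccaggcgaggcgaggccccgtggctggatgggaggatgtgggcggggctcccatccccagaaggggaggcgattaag
Grem1: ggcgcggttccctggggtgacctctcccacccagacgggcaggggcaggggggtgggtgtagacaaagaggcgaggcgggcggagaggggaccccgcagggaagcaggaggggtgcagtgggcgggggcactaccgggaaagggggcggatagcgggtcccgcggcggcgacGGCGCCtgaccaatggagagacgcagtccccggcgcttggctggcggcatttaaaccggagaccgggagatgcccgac

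GGCGCC, searched on both strands (it is its own reverse complement) in windows of 300 bases that add 50 bases after the start, occurred 1 time each in Grem1 and Bmpr1a and was not found in Bmp4 or Bmp5. Of 32817 windows of this length in the table, 11.9% held it. The palindromic Smad box GTCTAGAC (0.213% of windows) and TATAAA (13.6% of windows) were not found in any of the 4 windows. The share of G and C was 64.0% in Bmp4, 43.3% in Bmp5, 79.3% in Bmpr1a and 70.7% in Grem1. A match describes letters in this window only.

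Bmp2, which in the intestine is a ligand of differentiated epithelium, was not called against control in any group, though some alternatives made such calls. It was 26.5 and 28.4 normalised CPM in control, 14.2 and 35.2 in DMBA, 42.0 and 38.4 in TAM short, 25.4 and 28.3 in TAM long, and 19.5 and 13.7 in DMBA+TAM. Both TAM short libraries were above all others, and the DMBA libraries spanned most of the range. In DMBA+TAM, Bmp2 was lower than in TAM short (log2 fold change -1.29 ± 0.39 SE, adjusted p = 0.015), a call that was lost without replicate 1 of TAM short (-1.25, adjusted p = 0.053) or replicate 2 of DMBA+TAM (-1.07, adjusted p = 0.112). Against control the difference of DMBA+TAM was -0.74 ± 0.39 (adjusted p = 0.127) and did not pass the threshold, although it did with only the libraries of both groups fitted (adjusted p = 0.025) or with no filter on low counts (adjusted p = 0.0013). The same alternatives, in this order, called it higher in TAM short than in control (0.60, adjusted p = 0.002, and 0.55, adjusted p = 0.037). They also called it lower in DMBA+TAM than in TAM long (adjusted p = 0.039 and 0.0034). TAM long was called lower than TAM short (adjusted p = 0.0079 and 0.0075). With no filter Bmp2 was called lower in DMBA+TAM than in DMBA (adjusted p = 0.020). That difference ranged from -1.10 to 0.19 with libraries left out. Without DMBA replicate 2, DMBA against control was -0.96.

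Bmp5, another secreted ligand of the family, had the lowest mean FPKM of the 4 ligands in every group. It was 3.28 and 2.41 normalised CPM in control, 4.82 and 6.18 in DMBA, 1.69 and 1.89 in TAM short, 4.83 and 3.44 in TAM long, and 1.58 and 1.76 in DMBA+TAM, the last from 3 and 4 counts. All DMBA and TAM long libraries were above all others. Bmp5 was called higher in DMBA than in control (0.94 ± 0.32, adjusted p = 0.036) and in TAM long than in TAM short (1.20 ± 0.34, adjusted p = 0.018). DMBA+TAM was called lower than DMBA by -1.70 ± 0.45 (adjusted p = 0.0095) and lower than TAM long by -1.30 ± 0.46 (adjusted p = 0.036). The ratio of summed counts of DMBA+TAM to DMBA was 0.31 with a 95% interval from 0.122 to 0.661 that covers counting error only.

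None of the 4 Bmp5 calls held with every library left out in turn. The call against DMBA had an adjusted p of 0.0501 without replicate 1 of DMBA+TAM. The call of DMBA against control had an adjusted p of 0.071 without control replicate 1, 0.211 without control replicate 2 and 0.149 without DMBA replicate 2. Against TAM long, the adjusted p of DMBA+TAM was 0.143 without TAM long replicate 1, 0.127 without DMBA+TAM replicate 1 and 0.117 without DMBA+TAM replicate 2. TAM long against TAM short gave 0.113 and 0.082 without replicates 1 and 2 of TAM short and 0.142 without replicate 1 of TAM long. With DESeq2, only the call of DMBA+TAM against DMBA among the 4 was made, and that one was lost with counts thinned to the smallest library total (-1.67, adjusted p = 0.087). Thinned counts also ended the calls of DMBA against control (adjusted p = 0.274) and of DMBA+TAM against TAM long (adjusted p = 0.109), and so did fitting only both groups' libraries (adjusted p = 0.065 and 0.066). Without the filter DMBA against control was not called (adjusted p = 0.068), and with library size scaling DMBA+TAM against TAM long was not (adjusted p = 0.064). A replicate block also ended the call of DMBA+TAM against TAM long (adjusted p = 0.0546). Thinned counts moved TAM long against TAM short to 2.78 (adjusted p = 0.049). Limma on log2(FPKM + 1) put DMBA+TAM at -0.92 against DMBA (adjusted p = 0.0021) and at -0.64 against TAM long (adjusted p = 0.014).

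Bmp7 was 10.3 and 5.78 normalised CPM in control, 11.2 and 6.18 in DMBA, 7.57 and 8.71 in TAM short, 11.3 and 9.43 in TAM long, and 6.33 and 7.49 in DMBA+TAM. Replicates differed as much as groups did, and Bmp7 was called in none of the 8 comparisons by edgeR, with 0 of them at an unadjusted p under 0.05. Its adjusted p ranged from 0.251 to 0.997. The DMBA+TAM libraries were both below those of TAM short and TAM long.

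Summed over the 4 ligands, FPKM was 15.6 ± 1.81 in control (SD, n = 2), 49.0 ± 10.6 in DMBA+TAM, 34.7 ± 1.55 in TAM long, 32.7 ± 2.11 in DMBA and 19.4 ± 1.52 in TAM short. Bmp4 made up 32.4% ± 0.61 of this sum in control, 58.0% ± 8.44 in DMBA and 78.9% ± 6.47 in DMBA+TAM, whereas Bmp2 made up 42.1% ± 6.00, 21.9% ± 12.6 and 11.9% ± 5.45. The most abundant of the 4 in FPKM was Bmp2 in both control and both TAM short libraries, and Bmp4 in the other 6. With 2 libraries against 2, an exact two-sided permutation test cannot go below p = 0.333, so these sums are given without a test. The sums are not scaled by TMM, whose factors were 0.86 and 0.83 in control and 1.19 in both DMBA+TAM libraries. Set against control, sums in DMBA+TAM thus stand higher than they would on the scale of normalised CPM. Shares within a library are not affected.

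**Figure D3:**
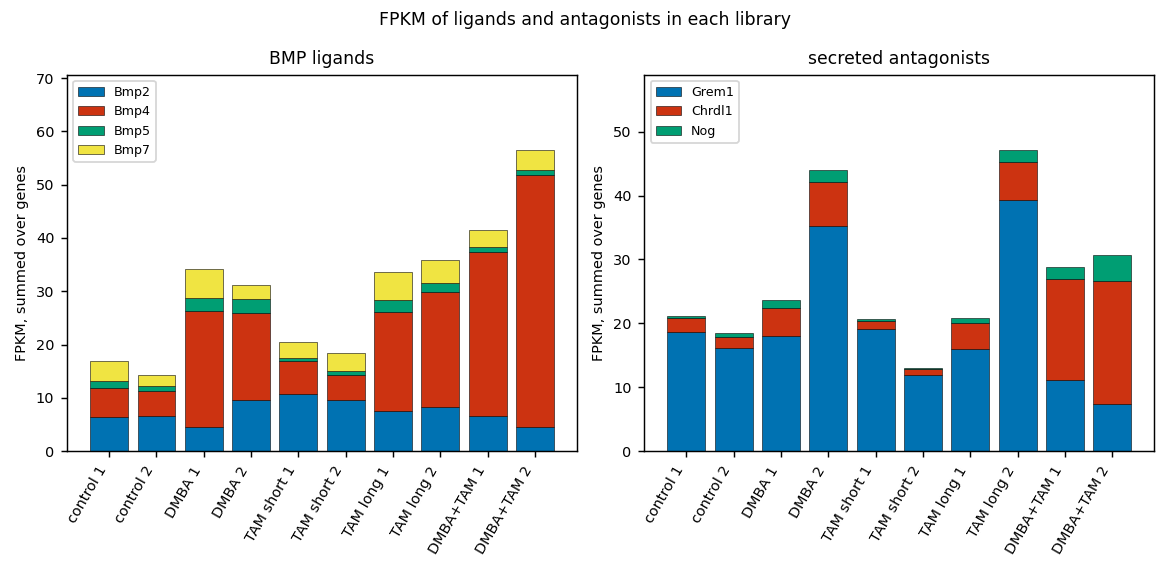
FPKM of the 4 ligands (left) and of the 3 antagonists (right), stacked from 0 in each library and not scaled by TMM. The Bmp4 part of the ligand bars is largest in DMBA+TAM, where the Chrdl1 part of the antagonist bars is also larger than the Grem1 part.

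Bmpr1a encodes a type I BMP receptor of the intestinal epithelium and other tissues. Of the 9 genes it varied least, by 0.77 over the libraries on the log2 scale of normalised CPM plus 1. It was 163 and 176 normalised CPM in control, 133 and 132 in DMBA, 120 and 111 in TAM short, 168 and 181 in TAM long, and 106 and 115 in DMBA+TAM. The control and TAM long libraries were all above those of the other 3 groups. Bmpr1a was lower than in control in DMBA+TAM (log2 fold change -0.62 ± 0.11 SE, adjusted p = 0.00083), in TAM short (-0.55 ± 0.11, adjusted p = 0.0091) and in DMBA (-0.36 ± 0.11, adjusted p = 0.021). It was lower in DMBA+TAM than in TAM long (-0.66 ± 0.11, adjusted p = 0.00071) and higher in TAM long than in TAM short (0.59 ± 0.11, adjusted p = 0.002).

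With library size scaling, 2 of these 5 Bmpr1a calls were lost, those of DMBA+TAM and of DMBA against control. With library size alone the log2 fold changes of all genes shifted by a median of 0.49 in DMBA+TAM against control, 0.31 in DMBA against control, 0.32 in TAM long against control and 0.09 in TAM short against control, and Bmpr1a became -0.12 (adjusted p = 0.414) in DMBA+TAM and -0.05 (adjusted p = 0.764) in DMBA. The other 3 calls held with library size, at -0.48 in DMBA+TAM against TAM long (adjusted p = 0.0077), 0.82 in TAM long against TAM short (adjusted p = 0.00056) and -0.46 in TAM short against control (adjusted p = 0.030). Library size scaling also called Bmpr1a higher in TAM long than in control (0.36, adjusted p = 0.030). With limma that call was made too (adjusted p = 0.027 and 0.028). DMBA+TAM against TAM short, at -0.06 with TMM and not called, was 0.34 and called with library size. Relative to the median of all genes, Bmpr1a in DMBA+TAM was -0.45 with TMM and -0.43 with library size, and in DMBA -0.43 and -0.42. The call in DMBA was also lost without control replicate 2 (-0.31, adjusted p = 0.117), with no filter (adjusted p = 0.054), with only both groups' libraries (adjusted p = 0.056), with thinned counts (-0.25, adjusted p = 0.197) and with limma (-0.05 with either pseudocount), and that of DMBA+TAM with limma (-0.12 and -0.13). The call in TAM short was lost with thinned counts (adjusted p = 0.064) and without control replicate 2 (-0.50, adjusted p = 0.085) or TAM short replicate 2 (-0.50, adjusted p = 0.111). Bmpr1a lies on the minus strand of chr14:34410734-34503341 (GRCm38) and shares exon bases with the antisense gene Gm17110, which had at most 14 counts in a library.

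Grem1 encodes gremlin 1, an antagonist that binds BMP2 and BMP4 and is made by mesenchymal cells around the crypt base. It was 90.1 and 80.5 normalised CPM in control, 66.9 and 150.2 in DMBA, 87.8 and 55.3 in TAM short, 62.5 and 156 in TAM long, and 39.1 and 26.0 in DMBA+TAM. Both DMBA+TAM libraries were below all 8 others, while replicates of DMBA and of TAM long differed more than the group means of control and TAM short. Grem1 was called lower in DMBA+TAM than in control (log2 fold change -1.40 ± 0.51 SE, adjusted p = 0.036). It was also called lower than in TAM long (-1.76 ± 0.51, adjusted p = 0.015) and DMBA (-1.75 ± 0.51, adjusted p = 0.016). Against TAM short the difference was -1.15 ± 0.51 (adjusted p = 0.076), and it was called with no filter (-1.22, adjusted p = 1.5e-10) and with only both groups' libraries (-1.09, adjusted p = 0.0045). The direction held in each of these comparisons with each library left out, but the calls did not.

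Against control, the adjusted p of Grem1 was 0.104 and 0.072 without control replicates 1 and 2, and 0.065 and 0.186 without DMBA+TAM replicates 1 and 2. With library size scaling it was 0.127, with a log2 fold change of -0.91, with limma 0.119 and 0.114 for pseudocounts of 1 and 0.1, and with thinned counts 0.074. Against DMBA, the call was lost without DMBA replicate 2 (-1.07, adjusted p = 0.098) or DMBA+TAM replicate 2 (adjusted p = 0.115). Against TAM long it was lost without TAM long replicate 2 (-0.96, adjusted p = 0.129) or DMBA+TAM replicate 2 (adjusted p = 0.114). Grem1 spans chr2:113746164-113758646 on the minus strand (GRCm38), and no other annotated gene overlaps it.

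Chrdl1 encodes chordin-like 1, a secreted antagonist that binds BMP4. It was higher in the groups in which Bmp4 was higher. It was 8.93 and 7.47 normalised CPM in control, 5.08 and 3.41 in TAM short, 14.0 and 25.3 in DMBA, 13.5 and 20.4 in TAM long, and 47.5 and 58.2 in DMBA+TAM. Both DMBA+TAM libraries were above all others, and both TAM short libraries below all others. The log2 fold change of DMBA+TAM was 2.69 ± 0.33 SE against control (adjusted p = 6e-05), 1.44 ± 0.31 against DMBA (adjusted p = 0.0032), 1.65 ± 0.31 against TAM long (adjusted p = 0.0014) and 3.63 ± 0.36 against TAM short (adjusted p = 1.2e-05). All 4 calls held under each alternative and with each library left out, though thinned counts moved the difference from TAM short to 4.52.

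Chrdl1 was also called higher in DMBA than in control (1.25 ± 0.32, adjusted p = 0.0097), in TAM long than in control (1.04 ± 0.32, adjusted p = 0.023) and in TAM long than in TAM short (1.98 ± 0.34, adjusted p = 0.0015). Thinned counts moved the last of these to 2.68 (adjusted p = 0.0013). The DMBA call was lost without control replicate 2 (1.12, adjusted p = 0.081) or DMBA replicate 2 (0.76, adjusted p = 0.061). The call of TAM long against control was lost without control replicate 1 (adjusted p = 0.076), control replicate 2 (adjusted p = 0.144) or TAM long replicate 2 (0.71, adjusted p = 0.177), and with thinned counts (0.86, adjusted p = 0.091). In TAM short against control Chrdl1 was at -0.94 and not called. It was called lower with no filter (-0.94, adjusted p = 0.0026) and with only both groups' libraries (-0.89, adjusted p = 0.027). Chrdl1 lies on the minus strand of chrX:143285674-143394262 (GRCm38). Fibroblast and endothelial markers were also highest in the DMBA+TAM libraries, and their part in the Chrdl1 result was not tested.

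Nog encodes noggin, the antagonist that the medium also supplied as protein, and its transcript was near the limit of these libraries. Its counts were 6 and 10 in control, 21 and 30 in DMBA, 7 and 2 in TAM short, 16 and 32 in TAM long, and 5 and 13 in DMBA+TAM, or 0.68 and 1.20, 1.88 and 3.37, 0.79 and 0.25, 1.38 and 3.14, and 2.64 and 5.73 normalised CPM. All DMBA, TAM long and DMBA+TAM libraries were above all control and TAM short libraries. Nog passed the filter on low counts only through DMBA, TAM long and DMBA+TAM, where it is high. Nog was called higher in DMBA+TAM than in control (2.17 ± 0.72, adjusted p = 0.024) and TAM short (2.96 ± 0.78, adjusted p = 0.0074), and in TAM long than in TAM short (2.04 ± 0.70, adjusted p = 0.04). The first call was lost without control replicate 1 (1.78, adjusted p = 0.126) or DMBA+TAM replicate 2 (1.45, adjusted p = 0.264), and the second without TAM short replicate 2 (2.37, adjusted p = 0.051) or DMBA+TAM replicate 2 (2.25, adjusted p = 0.117). The third was lost without replicate 1 (3.07, adjusted p = 0.062) or 2 (1.48, adjusted p = 0.229) of TAM short or replicate 2 of TAM long (1.33, adjusted p = 0.27). It was also lost with DESeq2 (2.09, adjusted p = 0.052) and with limma on log2(FPKM + 1) (0.88, adjusted p = 0.059). Without TAM short replicate 1, Nog in DMBA+TAM against TAM short was at 3.96. Limma on log2(FPKM + 1) put that difference at 1.57 (adjusted p = 0.0023) and DMBA+TAM against control at 1.37 (adjusted p = 0.0047). DMBA against control, at 1.46, was not called. It was called with library size scaling (1.75, adjusted p = 0.041) and with no filter (1.44, adjusted p = 0.041).

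Summed over the 3 antagonists, FPKM was 19.8 ± 1.93 in control (SD, n = 2), 29.8 ± 1.30 in DMBA+TAM, 34.0 ± 18.6 in TAM long, 33.8 ± 14.4 in DMBA and 16.8 ± 5.51 in TAM short. These sums are not scaled by TMM either. Between both scalings, log2 fold changes of all genes in DMBA+TAM against control shifted by a median of 0.49. The higher sum in DMBA+TAM than in control is thus not read as a rise. Grem1 made up 87.8% ± 0.59 of it in control and 31.5% ± 10.3 in DMBA+TAM, and Chrdl1 9.78% ± 0.52 and 58.8% ± 5.66. The ratio of antagonist to ligand FPKM was 1.25 and 1.29 in the control libraries, 0.69 and 1.41 in DMBA, 1.01 and 0.71 in TAM short, 0.62 and 1.32 in TAM long, and 0.70 and 0.54 in DMBA+TAM. The ratio in DMBA+TAM was below that in control in both libraries but overlapped the ranges of DMBA and TAM long. The direction depends on the genes that are summed. With the other ligands and antagonists of the pathway lists added (14 ligands and 15 antagonists, a choice made after the data were seen), the ratio was 2.44 and 2.17 in control and 5.39 and 4.55 in DMBA+TAM, and Nbl1, another secreted antagonist, alone made up 50.4% and 49.0% of the antagonist sum in control and 48.1% and 52.3% in DMBA+TAM. Both are ratios of transcripts and leave out the Noggin of the medium.

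Id1, an inhibitor of DNA binding and a direct target of BMP Smads, was 86.4 and 97.8 normalised CPM in control, 156 and 168 in DMBA, 114 and 112 in TAM short, 98.6 and 117 in TAM long, and 25.3 and 27.3 in DMBA+TAM. Both DMBA libraries were above all others and both DMBA+TAM libraries below all others. In DMBA+TAM the log2 fold change was -1.80 ± 0.14 SE against control (adjusted p = 2.2e-06), -2.62 ± 0.14 against DMBA (adjusted p = 3.1e-07), -2.03 ± 0.14 against TAM long (adjusted p = 1.4e-06) and -2.10 ± 0.14 against TAM short (adjusted p = 8.2e-07). In DMBA against control it was 0.81 ± 0.12 (adjusted p = 0.00047). In TAM long against control it was 0.22 ± 0.12 (adjusted p = 0.156), and 0.54 (adjusted p = 0.0042) with library size scaling.

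Id1 and Bmp4 thus had different orders over the groups: DMBA+TAM was the highest in Bmp4 and the lowest in Id1, while DMBA was above control in both. Id1 lies at chr2:152736251-152737410 on the plus strand (GRCm38). The fall in DMBA+TAM stood beside a fall of all 10 epithelial markers, from 22866 and 23717 normalised CPM summed in control, and the part of the epithelium in it was not tested.

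**Figure D4:**
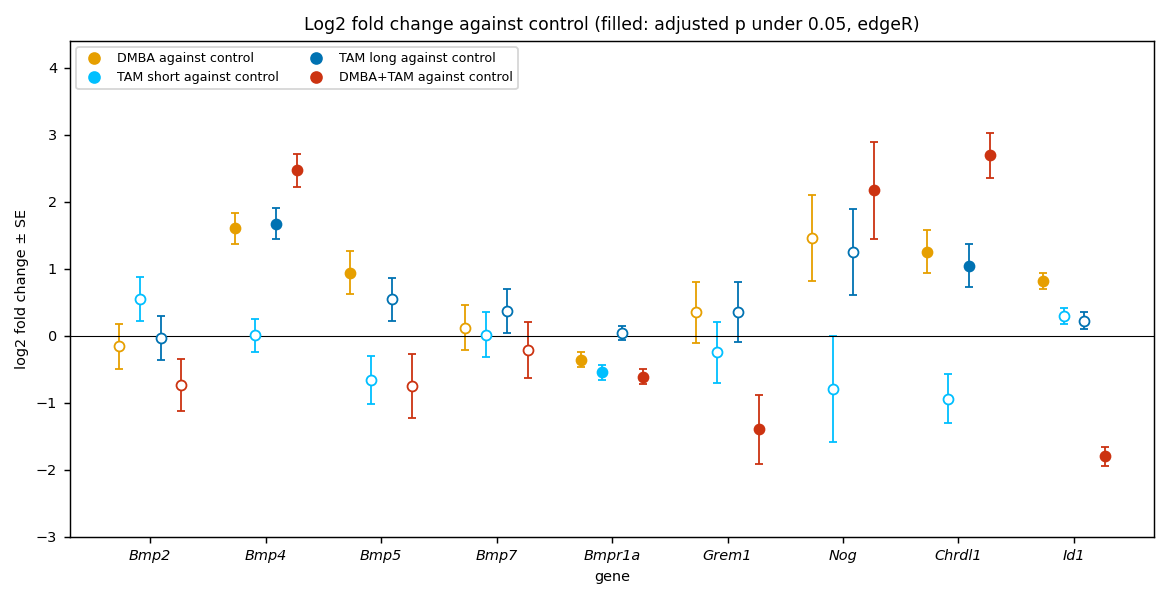
Log2 fold change against control of each of the 9 genes in the 4 treated groups. Points are edgeR estimates, bars are ± SE, and filled points have an adjusted p under 0.05. Bmp4 and Chrdl1 are filled and above 0 in all treated groups but TAM short, and Id1 is above 0 in DMBA and at -1.80 in DMBA+TAM.

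Counted over the comparisons, 6 of the 9 genes were called in DMBA+TAM against control. Bmp4, Nog and Chrdl1 were the 3 called higher, as were 29.0% of the 16179 genes tested, and Bmpr1a, Grem1 and Id1 the 3 called lower, as were 35.3% of all genes. Against DMBA, 2 were called higher (25.2% of all genes) and 3 lower (29.9%). Against TAM long, 2 were called higher (25.3%) and 4 lower (29.9%), and against TAM short 3 higher (29.3%) and 2 lower (33.8%). In DMBA against control, 4 were called higher (24.5%) and 1 lower (23.3%). TAM long had 2 called higher than control (23.2%) and 0 lower (22.8%), and TAM short 0 higher (6.52%) and 1 lower (7.80%). Between TAM long and TAM short, 5 were called higher (22.0%) and 0 lower (20.3%). How far these counts depart from the backgrounds was not tested. Those called higher in TAM long against TAM short (5) and in DMBA against control (4) were above the shares of all genes. Others, such as the 0 called lower in TAM long against control and against TAM short, were below. The counts alone are thus not read as setting the 9 genes apart from the rest. The comparisons with control share the 2 control libraries. Nog is among those called higher in DMBA+TAM against control and TAM short, and in TAM long against TAM short. It passed the filter on low counts only through DMBA, TAM long and DMBA+TAM, where it is high. Its calls in these numbers are thus no evidence on the 9 genes as a set.

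**Figure D5:**
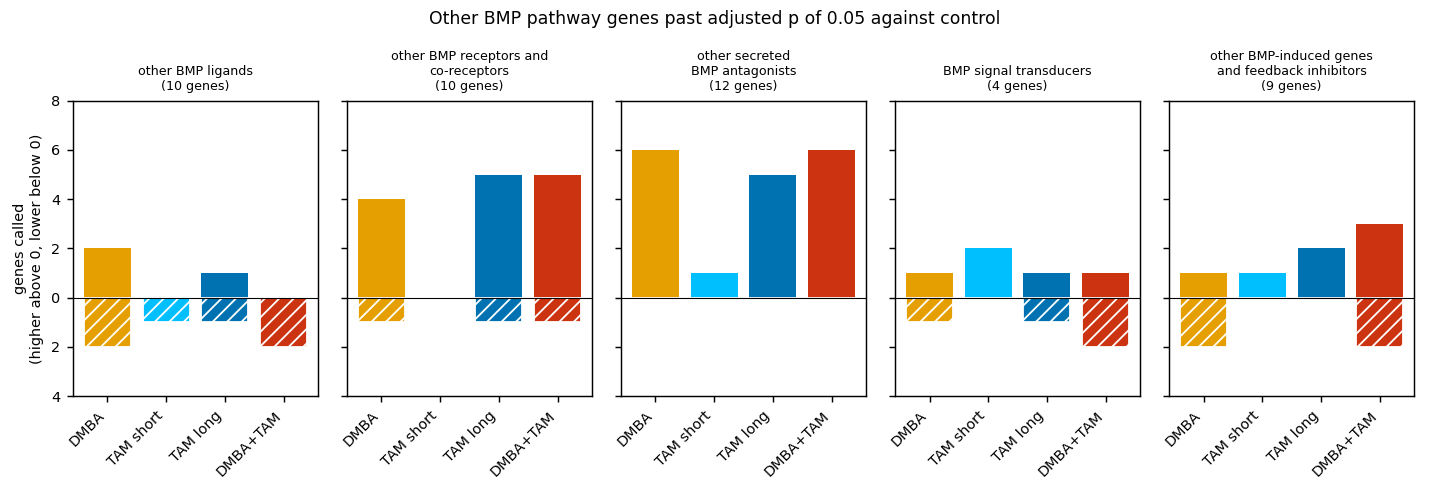
Genes of 5 other BMP pathway lists called against control at an adjusted p under 0.05, for the 4 treated groups. Solid bars above 0 count genes called higher and hatched bars below 0 genes called lower. Other secreted antagonists were called higher 6 times in DMBA and in DMBA+TAM, and never lower. Some genes counted, Fstl3, Bmpr1b and Msx1 among them, passed the filter on low counts only through groups where they are high.

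Among 12 other secreted antagonists, 10 were tested in DMBA+TAM against control, of which 6 were called higher (29.0% of all genes) and 0 lower (35.3%). Their median log2 fold change was 1.11, or 1.39 without Chrdl2, which had at most 3 counts in each of these 4 libraries, while that of all genes was -0.17. Bmper, which binds BMPs outside the cell, was 1.24 and 0.96 normalised CPM in control and 41.7 and 54.2 in DMBA+TAM (log2 fold change 5.42 ± 0.37 SE, adjusted p = 9.2e-07). Fst, the activin and BMP binding follistatin, was 4.30 and 3.85 in control and 94.5 and 70.5 in DMBA+TAM (4.33 ± 0.56, adjusted p = 8.4e-05). Fstl3, a follistatin relative, and Chrd, chordin, were also called higher (3.96 ± 0.52 and 3.14 ± 0.35). In DMBA and in TAM long, 6 and 5 of the 10 were called higher than in control (24.5% and 23.2% of all genes) and 0 lower, with Bmper at 1.66 and 2.06 and Chrd at 1.68 and 1.46. Library size scaling made these 7 and 8 higher, beside 34.5% and 34.2% of all genes at that scaling. In TAM short 1 was called higher (6.52% of all genes) and 0 lower. Chrdl2 passed the filter on low counts through DMBA and TAM long alone, where it is high. Fstl3 passed it only with the help of DMBA, TAM long and DMBA+TAM, where it is high. Calls of Chrdl2 or Fstl3 among the numbers above are thus no evidence on the list. Smooth muscle markers summed to between 1889 and 2227 normalised CPM in control and between 7531 and 13532 in DMBA and TAM long. Their part in the antagonist counts of those groups was not tested. Fibroblast markers summed to 1320 and 1141 normalised CPM in control and 32112 and 33016 in DMBA+TAM, macrophage markers to between 165 and 217 and between 5507 and 5611, and fat cell markers to between 125 and 215 and between 2248 and 4588, and their part in the antagonist result was not tested.

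Among 10 other receptors and co-receptors, 9 were tested in DMBA+TAM against control, with 5 called higher (29.0% of all genes), 1 called lower (35.3%) and a median log2 fold change of 1.84. Bmpr1b, the second type I receptor of BMPs, rose from 1 and 3 counts in control libraries to 46 and 23 in those of DMBA+TAM, a ratio of 71.0 with a 95% interval from 26.5 to 268 for counting error. Bmpr1b passed the filter on low counts only through DMBA and DMBA+TAM, where it is high. A call of Bmpr1b among the numbers of this list is thus no evidence on the list. Eng, endoglin, a co-receptor of endothelium and mesenchyme, was 16.4 and 15.7 normalised CPM in control and 135 and 137 in DMBA+TAM (3.08 ± 0.17, adjusted p = 1.8e-07). Acvrl1, an endothelial type I receptor for some BMPs, and Acvr1 rose by 2.05 ± 0.22 and 1.88 ± 0.24. The 8 endothelial markers were also called higher, all 8 of them, with sums of 91.1 and 101 normalised CPM in control and 711 and 695 in DMBA+TAM, and their part in the result was not tested. In DMBA 4 receptors were called higher (24.5% of all genes) and 1 lower (23.3%) than in control. Library size scaling gave 7 and 0, beside 34.5% and 14.0% of all genes. In TAM long the numbers were 5 (23.2% of all genes) and 1 (22.8%), or 6 and 0 with library size scaling (34.2% and 13.3%), and in TAM short 0 receptors were called by edgeR or DESeq2, with 2 (Eng and Acvr1) at an unadjusted p under 0.05.

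Among 10 other ligands, 6 were tested in DMBA+TAM against control, with 0 called higher (29.0% of all genes) and 2 lower (35.3%), a share near that of all genes. One of the 6, Gdf7, had 0 counts in all of these libraries. Bmp8b had 0 counts in both DMBA+TAM libraries against 87 and 92 in control, which at 3 counts per library makes it at least 7.20-fold lower. Bmp8a fell from 9.38 and 15.2 normalised CPM to 1.06 and 1.32, from 2 and 3 counts in DMBA+TAM (-3.34 ± 0.53, adjusted p = 0.00033), and had a ratio of 0.0985 with a 95% counting interval from 0.0317 to 0.234. In DMBA 2 of the other ligands were called higher and 2 lower than in control. For TAM long these numbers were 1 and 1, for TAM short 0 and 1, beside the same shares of all genes as above. Gdf7 passed the filter on low counts through DMBA and TAM long alone, where it is high. A call of Gdf7 among these numbers is thus no evidence on the list.

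Of the 4 Smad genes that carry the signal, Smad5 rose (1.41 ± 0.14, adjusted p = 1.1e-05) and Smad4 (-1.12 ± 0.14, adjusted p = 7.7e-05) and Smad1 (-0.64 ± 0.16, adjusted p = 0.0062) fell in DMBA+TAM against control, while Smad9 was not called. The shares of all genes were 29.0% higher and 35.3% lower. With library size scaling 1 of the 4 was called lower instead of 2, and 23.2% of all genes instead of 35.3%. Smad4 was 152 and 161 normalised CPM in control, 128 and 134 in TAM short, 74.8 and 89.7 in DMBA, 65.6 and 82.1 in TAM long, and 73.9 and 69.6 in DMBA+TAM, so that all libraries of DMBA+TAM, DMBA and TAM long were below those of control and TAM short. Smad4 fell by 0.93 on the log2 scale in DMBA and by 1.08 in TAM long against control.

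Of 9 other BMP-induced genes and feedback inhibitors, 8 were tested in DMBA+TAM against control, with 3 called higher (Id2, Id3 and Msx1) and 2 lower (Id4 and Smad7), beside 29.0% and 35.3% of all genes. With library size scaling 1 was called lower, beside 23.2% of all genes at that scaling. Msx1 passed the filter on low counts through DMBA+TAM alone, where it is high, and without it 2 of 7 were called higher. Id4 was lower as Id1 was, while Id2 and Id3 were higher. Id2 was 0.76 ± 0.24 SE higher (adjusted p = 0.018) and Id3 0.38 ± 0.14 higher (adjusted p = 0.035) on the log2 scale, while Id4, with 4 and 3 counts in DMBA+TAM, was at -2.65 ± 0.55 (adjusted p = 0.002). Smad7, a feedback inhibitor, was at -0.79 ± 0.22 (adjusted p = 0.0098). Msx1, a homeobox gene induced by BMPs, had 17 and 33 counts in DMBA+TAM against 1 and 0 in control, and is named after its values were seen. In DMBA against control, Id4 was higher (1.64 ± 0.30, adjusted p = 0.0016) as Id1 was, while Id2 (-0.65 ± 0.23, adjusted p = 0.038) and Id3 (-0.42 ± 0.13, adjusted p = 0.026) were lower, and with library size scaling 0 genes of this list were called lower, beside 14.0% of all genes. In TAM short, Id3 was the gene of this list called higher (0.84 ± 0.13, adjusted p = 0.0027) and 0 were called lower. The shares of all genes there were 6.52% higher and 7.80% lower.

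The genes whose pattern over the 10 libraries lay nearest to each of the 9 were found by the root mean square difference of centred log2 values of normalised CPM plus 1. For Bmp4 they were Sspn (0.155), Armcx1 (0.164) and Ift122 (0.167), where Bmp4 itself had a range of 2.82. For Chrdl1 they were Rasip1 (0.223), Fam149a (0.238) and Afap1 (0.272), against a range of 3.75. For Id1 they were Cep170b (0.150), Arhgap27 (0.178) and Slain1 (0.179), against a range of 2.68. Grem1 had no gene nearer than 0.325 (Fmo2), the largest distance among the 9.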

How the data were processed

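The deposited table lists 47069 genes with raw counts and FPKM for 10 libraries. Per the study, the authors mapped reads with TopHat, made the deposited counts per gene with HTSeq and computed the deposited FPKM from these counts and gene length; the build was GRCm38.p6 per the labels. The length behind FPKM was a whole number of bases for 99.996% of expressed genes (tolerance 0.01 bases) and shorter than the listed length for 53.02%. Strand and multi-mapping settings are not given in the sources used here. The table also holds 5 columns of group FPKM and 36 of the authors' own comparisons (fold changes and p-values), which were not used. Bmp4 and 4 other genes have broken lines and were named by gene ID.

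Groups were taken from the labels. The test was the quasi-likelihood test of edgeR 4.0.16 (R 4.3.3) after filterByExpr and TMM, with 1 fit of all libraries and 5 group means, in 8 comparisons, with Benjamini-Hochberg adjustment over 16179 genes and a threshold of 0.05. SE is the absolute log2 fold change over the root of F. Alternatives were library size scaling, DESeq2 1.42.0, no filter, only both groups' libraries, a replicate block, calls kept if the estimated log2 fold change was 1 or more in size, limma 3.58.1 on log2(FPKM + 1) and log2(FPKM + 0.1), counts thinned to 1592366, each library left out and, added after the data were seen, no DMBA+TAM libraries. Steps were tested on simulated data with 200 changed genes. Of genes changed 2-fold, 34.5% were recovered in DMBA+TAM against control and 48% in DMBA against control. Of genes changed 4-fold, 80% and 88% were recovered in the same comparisons. A gene that was not called may thus still differ. The 9 genes and all lists were chosen with earlier results of these data known. Named genes are the 9 and, per pathway list, at most 4 called genes with the largest fold change in DMBA+TAM against control and a mean of at least 10 counts, and for each of the 9 the 3 genes nearest in pattern. Intervals cover counting error only. Figures were drawn with matplotlib 3.10.9.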

Additional observations from a re-analysis of the deposited data

How the results depend on the processing

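Bmp4, Chrdl1 and Id1 in DMBA+TAM against control kept direction and call under every alternative run and with each library left out. In DMBA against control the number of the 9 genes called was 5 (47.8% of all genes), and 2 if an estimated log2 fold change of 1 or more in size was also asked (27.2%), 3 with only both groups' libraries (45.5%) and 3 with thinned counts (37.6%). In TAM long against control it was 2 (46.0%), and 4 with library size scaling (47.5%), 5 with limma on log2(FPKM + 1) (42.7%), 4 on log2(FPKM + 0.1) (42.2%) and 1 with thinned counts (35.7%). In TAM short against control it was 1 (14.3%), and 0 with a fold minimum (7.24%), 3 with no filter (12.5%), 4 with only both groups' libraries (31.0%) and 0 with thinned counts (9.80%). In TAM long against TAM short it was 5 (42.2%), and 3 with DESeq2 (35.4%), 7 with no filter (26.9%) and 6 with only both groups' libraries (52.3%). Shares are of all genes with an adjusted p at that setting. With libraries left out in turn, the number ranged from 4 to 5 for DMBA+TAM against control, from 3 to 6 against DMBA, from 3 to 5 against TAM long, from 3 to 5 against TAM short, from 2 to 5 for DMBA against control, from 1 to 2 for TAM long against control, from 0 to 1 for TAM short against control and from 3 to 4 for TAM long against TAM short. The cause was not tested.

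Library size scaling moved calls over all genes from 4687 higher and 5709 lower to 6254 and 3755 in DMBA+TAM against control, from 3961 and 3774 to 5587 and 2257 in DMBA against control, from 3760 and 3684 to 5538 and 2148 in TAM long against control, and from 1055 and 1262 to 1279 and 905 in TAM short against control. It moved them from 3554 and 3281 to 4747 and 2044 in TAM long against TAM short, and in DMBA+TAM from 4075 and 4842 to 4742 and 3916 against DMBA, from 4093 and 4831 to 4665 and 3929 against TAM long and from 4734 and 5473 to 6021 and 3768 against TAM short.

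Differences that changed sign were not called with the settings of the report, and the one called after the change was Bmpr1a in DMBA+TAM against TAM short, with library size scaling (adjusted p = 0.034) and limma (adjusted p = 0.024 and 0.023). With library size scaling, Bmp7 was 0.27 in DMBA+TAM against control and 0.18 against TAM short, Bmp5 0.31 and Bmpr1a 0.34 against TAM short, Bmp2 0.11 in DMBA and 0.29 in TAM long against control, and Id1 0.16 in TAM long against TAM short. In the same order, limma gave 0.24, 0.13, 0.14, 0.33, 0.018, 0.25 and 0.15 on log2(FPKM + 1), and 0.32, 0.16, 0.27, 0.34, 0.0086, 0.28 and 0.15 on log2(FPKM + 0.1). DESeq2 put Bmpr1a at 0.00022 against TAM short. Thinned counts put Bmp5 at 1.21 against TAM short, Bmp2 at 0.10 in DMBA and 0.23 in TAM long, and Bmp4 at -0.97, Bmp7 at -0.018 and Grem1 at 0.027 in TAM short, all against control after the first.

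With each library left out in turn, the log2 fold changes that crossed 0 ranged as follows. In DMBA+TAM against control, it was Bmp7 from -0.60 to 0.23. In DMBA+TAM against DMBA, they were Bmp2 from -1.10 to 0.19 and Bmp7 from -0.70 to 0.17. In DMBA against control, they were Bmp2 from -0.96 to 0.33, Bmp7 from -0.41 to 0.58 and Grem1 from -0.36 to 0.79. In TAM long against control, they were Bmp2 from -0.12 to 0.039, Bmpr1a from -0.022 to 0.090 and Grem1 from -0.45 to 0.86. In TAM short against control, they were Bmp4 from -0.25 to 0.21, Bmp7 from -0.34 to 0.49 and Grem1 from -0.63 to 0.042. In TAM long against TAM short, they were Grem1 from -0.21 to 1.11 and Id1 from -0.21 to 0.036.

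Replicate numbers did not pair the libraries, since differences between replicates correlated at -0.06 to 0.08 between groups, except 0.32 between DMBA and TAM long. With the replicate number as a block, 5 in place of 6 genes were called in DMBA+TAM against TAM long (Bmp5, adjusted p = 0.0546), and no other call changed. Without the DMBA+TAM libraries, none of the 36 outcomes (9 genes in the other 4 comparisons) changed. The DMBA+TAM libraries have the fewest counts in all, and Bmp5 has its fewest there (3 and 4), while Nog has its fewest in TAM short (7 and 2).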

Other observations

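Grem1, Chrdl1 and Nog were all higher in replicate 2 than in replicate 1 of both DMBA and TAM long. Grem1 was 66.9 and 150.2 normalised CPM in DMBA and 62.5 and 156 in TAM long, and Nog 1.88 and 3.37, and 1.38 and 3.14. The smooth muscle markers did not follow this order, with sums of 12759 and 7531 in DMBA and 8824 and 13532 in TAM long. Macrophage markers did in DMBA, with 249 and 337, and differed little in TAM long, with 266 and 269. Fibroblast markers did not follow it, with 2191 and 1945 in DMBA and 1336 and 1680 in TAM long. Neither did endothelial markers, with 137 and 114 in DMBA and 112 and 137 in TAM long. Colon markers ran the other way in both groups, with 6988 and 2840 in DMBA and 12133 and 4941 in TAM long. Markers of enteric neurons and glia (49.3 and 43.4, 47.4 and 36.9) and fat cells (210 and 88.3, 57.1 and 46.5) also fell. Their part was not tested. Differences between replicates over all genes correlated at 0.32 between these groups, a description over genes of 4 libraries.

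Hfe2, the co-receptor hemojuvelin of skeletal muscle and liver, had 87 counts in DMBA+TAM replicate 2 and 0 in the other 9 libraries, and is named after its values were seen. The 5 skeletal muscle markers summed to 6857 normalised CPM in that library and 4.75 in DMBA+TAM replicate 1. Gdf7, a BMP ligand also named after its values were seen, had 24 and 10 counts in DMBA, 23 and 11 in TAM long, and 0 in control, TAM short and DMBA+TAM. At 3 counts per library it was at least 4.66-fold higher in DMBA and at least 4.38-fold higher in TAM long than in control.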
